A study of Camelus dromedarius with 4 samples.

Results

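The machinery that fuses synaptic and dense-core vesicles with the plasma membrane was followed through the supraoptic nucleus of dromedary camels in winter and in summer. Its genes were found by name in the deposited table of season means, as the syntaxins, SNAP and VAMP proteins, synaptotagmins, complexins, syntaxin-binding proteins, UNC13, RIM and CAPS proteins, SV2 proteins, synapsins, synaptophysin, synaptoporin, NSF and its adaptors. The names gave 76 of the 18152 symbols in the table. Of these, 71 had season means, and CPLX4, SYT4, SYT8, SYT12 and VAMP5 had a row without values. The names were matched without regard to values, although the set itself was proposed with earlier results of these data known.

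The supraoptic nucleus holds magnocellular neurones, which make vasopressin and oxytocin and release them from the posterior pituitary. The hormones travel in large dense-core vesicles, while the synapses that these cells receive release transmitter from small clear vesicles. In both cases a SNARE protein on the vesicle, a VAMP, pairs with a syntaxin and a SNAP protein of the target membrane, and the complex is prepared by priming factors, held by complexins, triggered by synaptotagmins that bind calcium, and taken apart by NSF and its adaptors.

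The animals were hydrated adult males of the Tergui breed, matched for age, and the groups differed in season, in the day of slaughter and in the place, El Oued in winter and Ouargla in summer. Season, day and place cannot be told apart. RNA depleted of ribosomal RNA gave 2 libraries for winter, labelled 2 and 3, and 2 for summer, labelled 1 and 2. By the description of the experiment these were tissues of separate camels, so the spread between libraries of a season, on which p-values rest, holds differences between animals and technical ones together. Between 4379162 and 6902037 reads per library were counted on 64989 gene models, whose identifiers carry no gene names. Summer library 2 had reads on 40178 of them and the other libraries on 49320 to 52456. The counts on gene models did not group by season. Winter 3 and summer 1 were closest (Pearson correlation 0.939 on the log2 scale), against 0.909 within winter and 0.885 within summer. Named genes come from the table, which gives the mean of normalized reads in each season. In the table the row for vasopressin, listed as a putative AVP, averaged 2559.6 normalized reads in winter and 11822 in summer, and OXT, the oxytocin gene, 621 and 592, so both defining hormones of the nucleus were present.

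A season mean is a sum of whole reads of 2 libraries, each read worth a fixed step, and solving for the reads gave both libraries of each season. They are called winter library A and B (size factors 1.33 and 0.946) and summer library A and B (0.922 and 0.877), and were not assigned to replicate numbers. Unlike the counts on gene models, recovered reads of 4203 symbols correlated most between the 2 winter libraries (Pearson 0.683 on the log2 scale). They correlated least between the 2 summer libraries (0.453), and pairs across seasons lay between, from 0.571 to 0.651. Of the 67 exocytosis genes whose mean reached 10 in winter or summer, 32 had a single solution and could be tested. The other 35 had several, 28 of them only in winter, where different pairs of whole reads gave the same mean. Single solutions were reached by 15.4% of symbols with a winter mean of 100 or more and by 100% of those with both means under 100, so the tested genes favour low winter means. The 4 genes CPLX3, STX5, STX11 and STX19 stayed below 10 in both seasons.

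No testable exocytosis gene passed the test between seasons. In edgeR's quasi-likelihood test on 7623 symbols, 0 of 32 passed an unadjusted p of 0.05 with more than a 2-fold difference, against 1.68% of all symbols, and 0 had an unadjusted p under 0.05 at any fold, against 1.99% (152 symbols). After Benjamini-Hochberg adjustment 0 passed, as for all symbols (0%). By the rule, limma-voom, DESeq2 and edgeR's exact test also called 0 of the 32, against 83, 60 and 106 of the 7623 symbols. At shares this low, 0 calls among 32 genes do not set them apart. With TMM, RLE or total-read scaling 1 exocytosis gene passed the rule, higher in winter, where 1.9%, 1.86% and 2.19% of all symbols passed, and 0 passed after adjustment. Libraries of the same season varied with a biological coefficient of variation of 0.46, as edgeR estimated it over all symbols.

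The season means of genes known for release in neurones were mostly higher in winter, but for those that could be tested this did not hold without winter library A. Over all 13808 symbols with a mean of at least 10, the median log2 ratio of winter to summer means (0.5 added to both) was -0.04, and 46.2% were higher in winter. Over the 67 exocytosis genes the median was 0.11, with 37 higher in winter. Within them a list of genes known for regulated release in neurones, called the neuronal core here, had a median of 0.48 over 27 genes, 22 of which had the higher mean in winter. General neurone markers had a like median of 0.53, 8 of 10 being higher in winter. Without winter library A, the median of the 9 testable core genes was -0.04 in place of 0.49. The median edgeR log2 difference of all tested symbols was then -0.18 in place of -0.11. The core, chosen with earlier results of these data known, includes SNAP25, STX1A, VAMP1, VAMP2, SYT1, SYT2, SYT4, SYT7, CPLX1, CPLX2, UNC13A, UNC13B, RIMS1, RIMS2, CADPS, CADPS2, SYN1 to SYN3, SYP, SV2A to SV2C, NSF, NAPA and NAPB. Some genes outside it are also known from neurones and had higher means in summer, among them STXBP5L (-0.46), SYT14 (-0.53), STXBP5 (-0.24) and RIMS4 (-0.11). Others had higher means in winter, among them SYT3 (1.08), SYNPR (0.73), RIMS3 (0.62) and UNC13C (0.37). The contrast thus depends on the choice of the list. The other 40 exocytosis genes had a median of -0.07, 15 being higher in winter and 25 in summer. These are descriptions of means without a spread. In bulk tissue, fewer cells of a type and less RNA per cell cannot be told apart.

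Means more than 1.5-fold apart were found in 18 exocytosis genes, 13 higher in winter (9.94% of all symbols) and 5 higher in summer (11.9%). The core held 9 of the former and 0 of the latter. Differences of more than 2-fold were found in 4 exocytosis genes, SYT3, SV2A and CPLX2 among them, all higher in winter, against 2.59% of all symbols. The 5 lowest ratios belonged to SYT10 (-0.68), STXBP2 (-0.68), VAMP3 (-0.66), STXBP4 (-0.60) and STX10 (-0.59), none of them in the core.

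**Figure D1:**
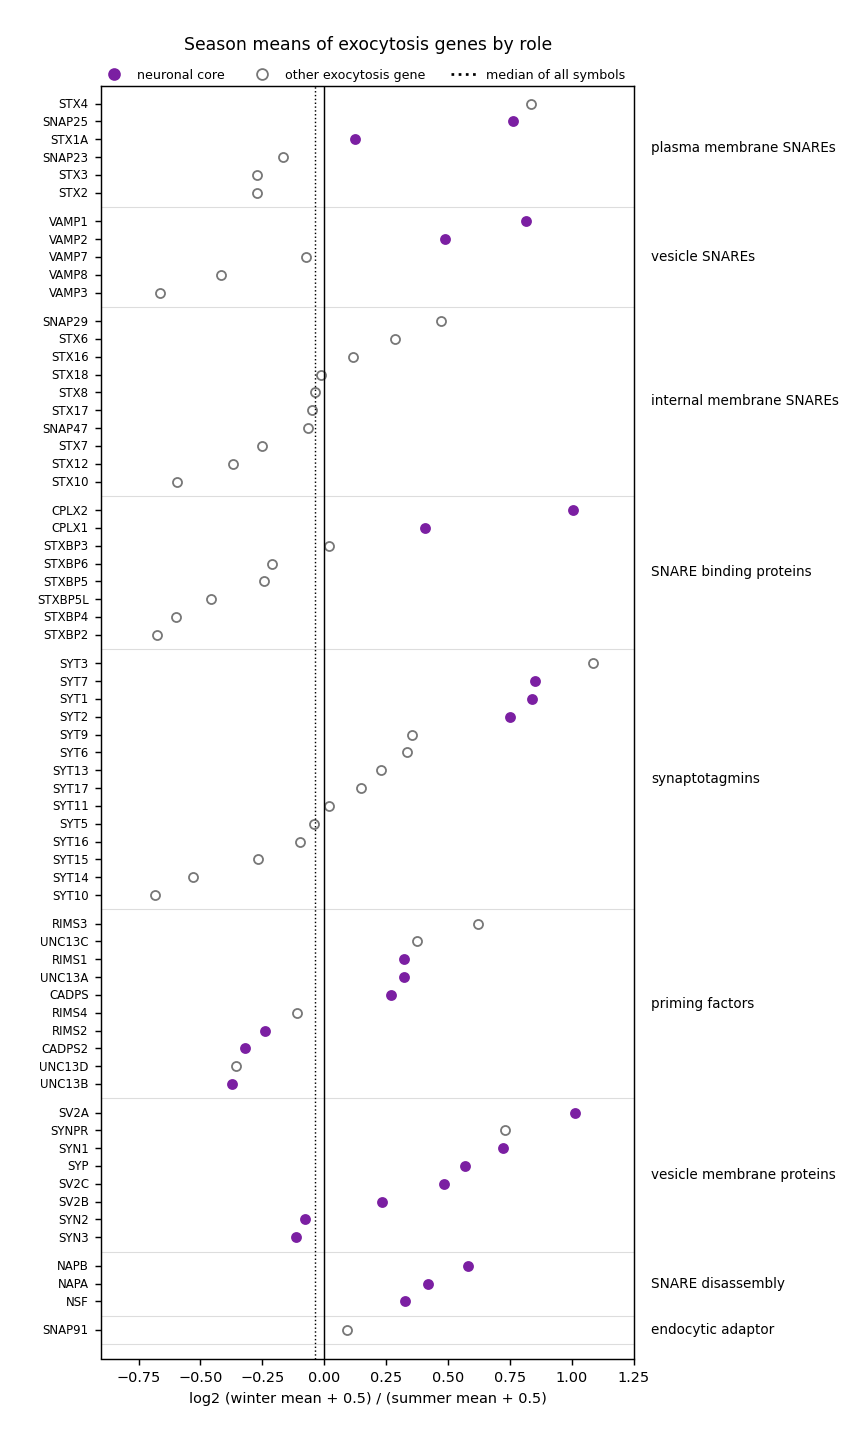
Log2 ratio of the winter to the summer mean for 65 of the 67 exocytosis genes with a mean of at least 10, grouped by role (filled purple, neuronal core; open grey, other genes; dotted line, median of all symbols at -0.04). Of the core genes drawn, 20 of 25 lie right of 0, and the 10 SNAREs of internal membranes lie on both sides, 3 right and 7 left.

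At the plasma membrane the syntaxins and SNAP proteins receive the vesicle. STX1A, a syntaxin of nerve terminals, had 67.9 and 41.2 normalized reads in winter libraries A and B and 51.0 and 49.0 in summer libraries A and B, so that the summer libraries lay between the winter libraries. STX4, a syntaxin of most cell types, had 18.9 and 29.6 in winter and 11.9 and 14.8 in summer, without overlap, at 11 to 28 reads per library (log2 difference 0.83 ± 0.71, SE, edgeR adjusted p = 0.982). STX2 and STX3, which serve secretion in non-neuronal cells as well, had log2 differences of -0.27 and -0.28 and overlapped between seasons. The mean of SNAP25, the SNAP protein of neurones, was 237 in winter and 139 in summer, while that of SNAP23, its widely expressed relative, was 212 and 238.

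The reads behind the SNAP25 mean could not be settled in winter. One solution puts 212 normalized reads in library A and 261 in library B, and the other 352 and 122. The summer libraries held 79.2 and 199, so that the seasons overlap in the second solution and not in the first.

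Of the vesicle SNAREs, the neuronal pair VAMP1 and VAMP2 had higher means in winter and the widely expressed VAMP3, VAMP7 and VAMP8 higher means in summer. VAMP1 had 132 and 25.4 normalized reads in winter and 40.1 and 49.0 in summer. Winter library A held the highest value and winter library B the lowest, and leaving out A turned the log2 ratio from 0.81 to -0.80. VAMP2, the main VAMP of synaptic and neurosecretory vesicles, had 214 and 113 in winter and 85.7 and 147 in summer. Here too winter library A was highest, summer library B came next, and the ratio of 0.49 became -0.04 without winter library A.

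VAMP3, the cellubrevin of recycling endosomes, ran the other way, with 20.4 and 41.2 normalized reads in winter and 43.4 and 54.7 in summer. The seasons did not overlap, though winter library B and summer library A were close (log2 difference -0.70 ± 0.54, SE, edgeR adjusted p = 0.982). VAMP8 had 41.5 and 62.4 in winter and 86.8 and 52.4 in summer, and VAMP7, a SNARE of late endosomes, 81.5 and 111 against 116 and 86.6. Both overlapped.

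The SNAREs of internal membranes, which act in endosomes, the Golgi apparatus, the endoplasmic reticulum and autophagosomes, had a median log2 ratio of -0.04 over 10 genes, close to that of all symbols. STX6, which acts in traffic between the Golgi apparatus and endosomes, had means of 478 and 392. Of the 10 only STX10, a syntaxin of the trans-Golgi network, was more than 1.5-fold apart, with 33.2 and 20.1 normalized reads in winter and 43.4 and 37.6 in summer. STX10 and the endosomal STX12 (15.8 and 14.8 in winter, 23.9 and 16.0 in summer) were higher in both summer libraries, with log2 differences of -0.58 and -0.37 and an adjusted p of 0.982 for both in edgeR's quasi-likelihood test.

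Among the proteins that bind SNAREs, 4 of 9 had the higher mean in winter, the complexins CPLX1 and CPLX2 among them, and 5 in summer. CPLX2 had means of 115 in winter and 57.0 in summer and CPLX1 106 and 80.3. The libraries of CPLX1 spread widely, with 176 and 37.0 normalized reads in winter and 48.8 and 112 in summer, so that the 2 seasons overlapped fully (log2 difference 0.44 ± 0.70, SE, edgeR adjusted p = 0.982). Of CPLX2, winter library A or winter library B was the high one, depending on the solution. CPLX3, a complexin of retinal ribbon synapses, was counted with 6 and 3 reads in winter and 0 in both summer libraries, and a count of 0 allows up to 3 reads, so no fold is given.

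STXBP4 (193 and 293), STXBP5L (168 and 230.4) and STXBP5 (582 and 688) had the higher mean in summer. STXBP5 and STXBP5L are tomosyns, which hold syntaxin out of the release complex. In STXBP5L and STXBP4 summer library B was the higher of the 2, with 268 against 193 and 394 against 191 normalized reads. STXBP3, the Munc18 protein of many cell types, had nearly equal means of 735 and 726. STXBP2 was counted with 3 to 19 reads per library.

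The synaptotagmins had a median log2 ratio of 0.19 over 14 genes, 9 higher in winter. SYT1, SYT2 and SYT7 bind calcium and trigger release, SYT1 and SYT2 with fast and SYT7 with slow kinetics. SYT1 had means of 137 and 76.6, with summer libraries of 36.9 and 116 normalized reads and 2 winter solutions, 53.6 and 221 or 193 and 81.4. In both solutions at least 1 winter library fell below summer library B.

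SYT2 had 83.0 and 12.7 normalized reads in winter and 9.76 and 46.7 in summer. Winter library A and summer library B were high and the other libraries low, and the log2 difference of 0.82 ± 0.93 (SE, edgeR adjusted p = 0.982) was smaller than the difference between the winter libraries, 2.66 on the log2 scale. SYT7 had 28.7 and 20.1 in winter and 15.2 and 11.4 in summer, higher in both winter libraries at 10 to 38 reads each (log2 difference 0.89 ± 0.69, SE, edgeR adjusted p = 0.982). Its ratio was positive whichever library was left out, from 0.58 to 1.08.

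SYT3, which like SYT6, SYT9 and SYT10 belongs to the calcium-binding synaptotagmins, had the highest ratio of season means among the 67 genes. Its libraries held 72.4 and 30.7 normalized reads in winter and 17.4 and 30.8 in summer, so winter library B and summer library B were nearly equal (log2 difference 1.13 ± 0.63, SE, edgeR adjusted p = 0.982). SYT10, which acts in the secretion of IGF-1 from neurones, had the lowest ratio, with 27.2 and 41.2 in winter and 22.8 and 87.8 in summer. The summer libraries were both the lowest and the highest of the 4.

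SYT11, which does not bind calcium, had means of 2398 and 2364, a log2 ratio of 0.02. SYT13 and SYT16, also without calcium binding, had ratios of 0.23 and -0.10. SYT5, a dense-core vesicle synaptotagmin, had 108 and 52.9 normalized reads in winter and 62.9 and 103 in summer. Winter library A and summer library B were high and nearly equal, and the season means differed by -0.04 on the log2 scale.

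The priming factors were divided, 5 higher in winter and 5 in summer, with a median of 0.08. UNC13A and RIMS1, which prepare synaptic vesicles at the active zone, had means of 413 and 331 and of 319 and 256. UNC13B and RIMS2, which have like functions, had means of 1017 and 1317 and of 304 and 359, higher in summer. CADPS and CADPS2, the CAPS proteins that prime dense-core vesicles, had means of 598 and 497 and of 248 and 309. None of these genes had a single solution in winter. In summer, library B held more than library A for RIMS1 (347 against 165 normalized reads) and CADPS2 (424 against 194), and the 2 libraries of RIMS2 were close (365 and 352).

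The vesicle membrane proteins had the highest median of the large roles, 0.53 over 8 genes, 6 of them higher in winter. SYP, synaptophysin, an abundant protein of synaptic vesicles, had means of 777 and 524, and SYN1, a synapsin that tethers vesicles to actin, 553 and 335. SV2A had means of 366 and 181, SV2B 165 and 140.2 and SV2C 152 and 108. The SV2 proteins span the membrane of both vesicle types. SYN2 and SYN3, the other synapsins, had 57.3 to 73.7 and 89.0 to 114 normalized reads in the 4 libraries, overlapping, with ratios of -0.08 and -0.11.

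SV2A was higher in winter library A in both of its winter solutions, 521 against 212 or 661 against 71.9 normalized reads. In summer it was higher in library B, 277 against 85.7. Every solution therefore puts winter library A highest and summer library B above winter library B. SYN1 was also higher in winter library A in each of its 3 solutions, with 663 to 942 against 165 to 444, and its summer libraries held 300.4 and 369. SYNPR, synaptoporin, which is outside the core, had 158 and 34.9 in winter and 22.8 and 93.5 in summer, the same order of libraries as SYT2.

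All 3 genes of SNARE disassembly had the higher mean in winter, NSF with 1307 and 1042, NAPA with 430.5 and 321 and NAPB, the adaptor most known from brain, with 319 and 213. The summer libraries of NAPA (312 and 331) and NAPB (216 and 211) were close to each other, unlike those of SNAP25, SYT1 and SV2A. SNAP91, an adaptor of clathrin coats that bears the name but is no SNARE, had means of 516 and 485.

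**Figure D2:**
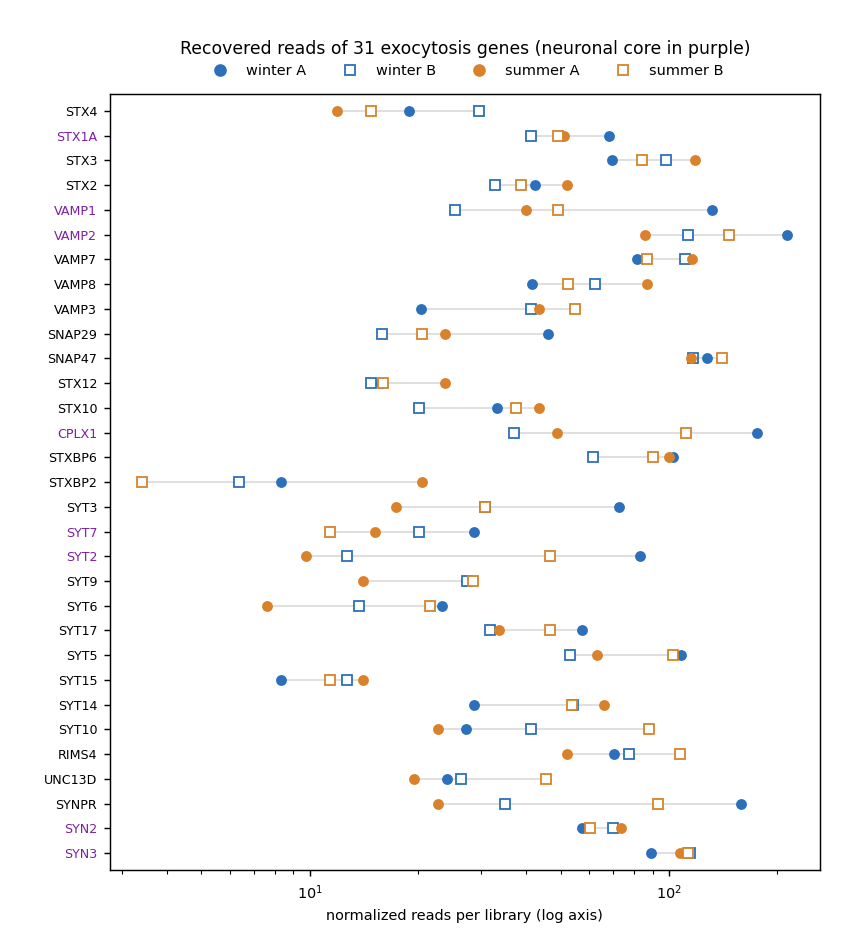
Normalized reads of 31 exocytosis genes with a single solution, in winter libraries A and B (blue) and summer libraries A and B (orange), on a log axis, with neuronal core genes named in purple. Of the genes drawn, STX4 and SYT7 have both winter libraries above both summer libraries, and STX10, STX12 and VAMP3 the reverse.

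Across the 32 genes, 3 were higher in both winter libraries (13.4% of all symbols), 3 higher in both summer libraries (17.2%), and 26 overlapped. With 2 libraries against 2, an exact permutation test cannot go below 0.333. Of the 35 genes with several solutions, 24 overlapped in every solution. In 7 (NAPA, NAPB, SNAP25, SYN1, UNC13A and UNC13C among them) 1 solution put both winter libraries on top, and in RIMS2 1 put both summer libraries on top. NSF, SYT11 and UNC13B had more than 10 solutions in a season and were not resolved. No share over all symbols was counted for genes with several solutions, so these numbers describe the members only.

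**Figure D3:**
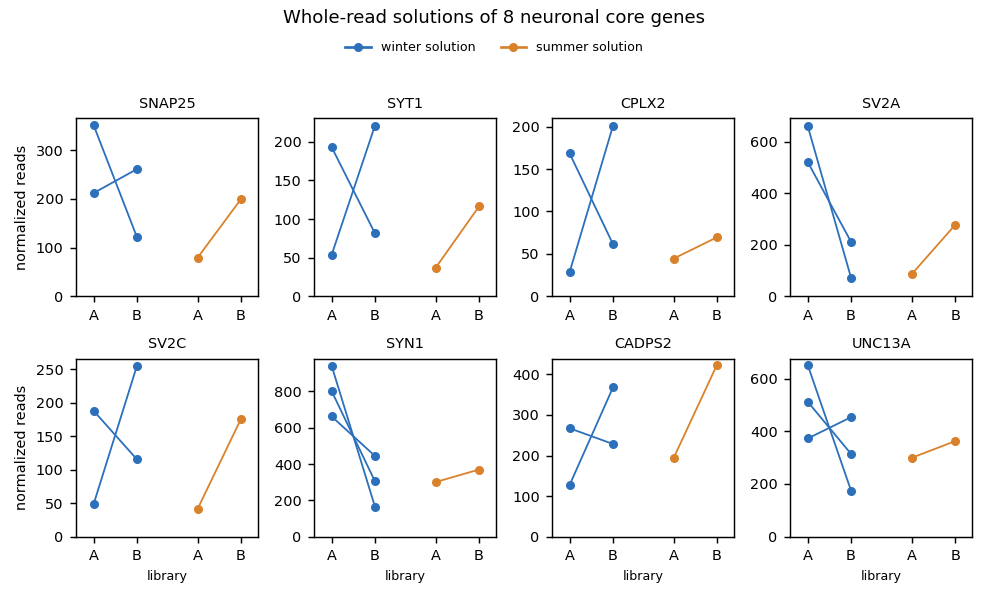
Whole-read solutions of 8 neuronal core genes, with normalized reads on the vertical axis (scaled per gene, from 0) and library A and B of winter (blue) and summer (orange) on the horizontal axis; each line is 1 solution. All 8 have a single summer solution with library B above A, while the winter solutions of SNAP25, SYT1, CPLX2, SV2C, CADPS2 and UNC13A disagree on which library is higher.

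Libraries of the same season differed from each other in these genes. The median absolute log2 difference of the 32 genes was 0.67 between the winter libraries, 0.45 between the summer libraries and 0.32 between the seasons, where all symbols had 0.44, 0.65 and 0.37. For the 9 core genes the values were 0.91, 0.29 and 0.39. A difference between seasons is one of means of 2 libraries and so varies less than one between single libraries. The libraries of the 9 core genes summed to 963 normalized reads in winter A, 489.7 in winter B, 469.5 in summer A and 631 in summer B, and those of the other 23 genes to 1213, 1013, 1088 and 1269.

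Genes with a single summer solution show the summer libraries with fewer genes lost. Of the core, 19 of 23 such genes were higher in summer library B than in A, against 54.5% of 12154 symbols, with a median log2 difference of 0.38 against 0.07. The largest differences were those of SYT2 (2.20), SV2C (2.08), SV2A (1.69), SYT1 (1.64), SNAP25 (1.33) and CPLX1 (1.19). The 4 exceptions were NAPB, STX1A, SYN2 and SYT7, from -0.03 to -0.40. Outside the core 18 of 37 were higher in B, with a median of -0.10. Winter library A above B together with summer library B above A held for 11 of 32 genes, close to the 34.1% of all symbols, and for 5 of the 9 core genes, CPLX1, SYT2, VAMP1 and VAMP2 among them.

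**Figure D4:**
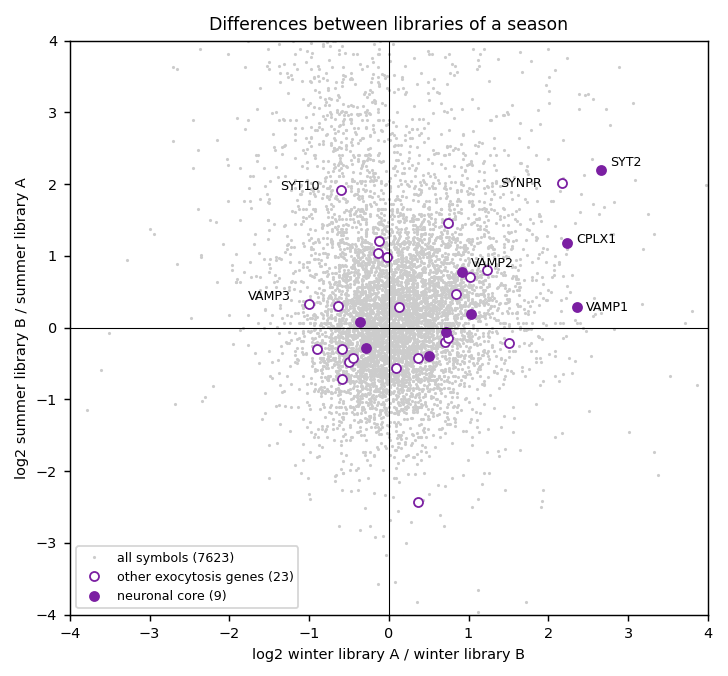
Log2 ratio of winter library A to B (horizontal) against that of summer library B to A (vertical) for the 7623 tested symbols (grey) and the 32 exocytosis genes (filled purple, neuronal core; open purple, others); 403 symbols beyond 4 on an axis are not drawn. SYT2, SYNPR and CPLX1 lie furthest to the upper right, and VAMP1 to the right with little difference between the summer libraries.

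The higher winter level of the testable core fell most without winter library A. With all libraries, the median log2 ratio of the 9 single-solution core genes was 0.49, with 7 higher in winter. Without winter library A it was -0.04, with 4 higher in winter, and without winter library B 1.08. Without summer library A it was 0.15, and without summer library B 0.93. For all 32 genes the median was -0.07, and -0.20, 0.06, -0.05 and 0.36 with winter A, winter B, summer A and summer B left out. All tested symbols had a median edgeR log2 difference of -0.11, and of -0.18, -0.11, -0.16 and 0.16 in the same order. Without winter library A the core median of -0.04 lay above the -0.18 of all symbols, though the first is a ratio of means and the second a fitted difference. For the 32 genes both measures then gave a median of -0.20. STX4, SYT3 and SYT7 were higher in winter whichever library was left out, and STX10, STX12, VAMP3 and 5 other genes (STX2, STX3, SYT14, SYT15 and VAMP8) higher in summer. The share of all symbols that kept their direction in this way was not counted, so this describes the members only.

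The calls moved with the same libraries. Without summer library B, 5 exocytosis genes passed the rule in edgeR's quasi-likelihood test, CPLX1, SYNPR, SYT2 and SYT3 among them, all higher in winter, where 15.1% of all symbols passed. SYNPR then also had an adjusted p of 0.0142, where 2.94% of all symbols passed. Without summer library A only SYT10 passed, higher in summer (14.4% of all symbols). Without winter library B 2 passed, VAMP1 among them, higher in winter (0.643%), and without winter library A 0 did (0.433%). Without summer library B or A, the direction of the calls was also that of the median log2 difference of all symbols, 0.16 and -0.16. The library left alone in its season is assumed to vary like the others.

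**Figure D5:**
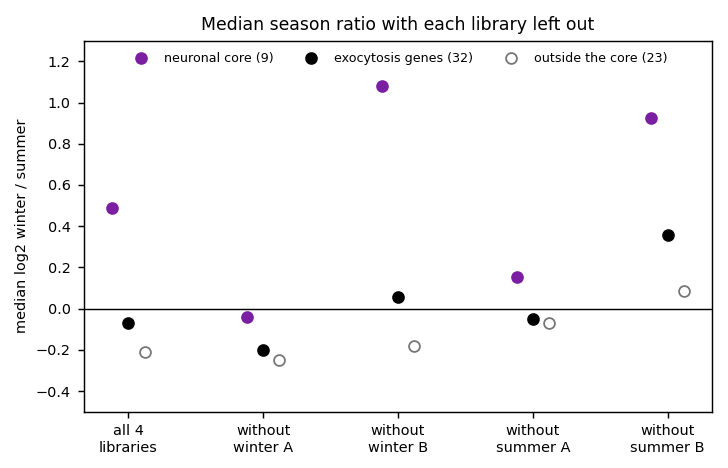
Median log2 ratio of winter to summer means over the 9 core genes (purple), all 32 single-solution exocytosis genes (black) and the 23 genes outside the core (open), with all libraries and with each left out. The core median ranges from -0.04 without winter library A to 1.08 without winter library B.

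Cell type markers also differed between these libraries, and no listed marker with season means was at 0 in either season. The neurone list had a median log2 ratio of means of 0.53 over 10 genes, 8 higher in winter, near that of the exocytosis core, with summed means of 14826 in winter and 13229.5 in summer. Its 2 single-solution genes, RBFOX3 and DCX, summed to 102 and 83.5 normalized reads in winter A and B and 43.4 and 69.5 in summer A and B, and 5 of 6 neurone markers with a single summer solution were higher in summer library B. The 4 single-solution astrocyte markers had the order of the core, with 445, 189, 153 and 392, and all 5 with a single summer solution were higher in summer library B. Over the whole list of 9 the astrocyte sum was 26252 in winter and 41404 in summer, GFAP alone 14423 and 25074 and S100B 7490 and 11788. The median log2 ratio of the 9 was -0.11, with 4 higher in winter and 5 in summer.

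The 4 single-solution microglia markers had 382 and 416 normalized reads in winter and 427 and 258 in summer, lowest where the core was second highest. Over the 10 microglia markers with season means the sum was 7060 in winter and 9136 in summer. Their median log2 ratio was -0.16, with 3 higher in winter and 7 in summer. The 6 magnocellular markers with a single solution summed to 307 and 118 in winter and 331 and 351 in summer, lowest in winter library B. The 9 markers of this list with season means, without AVP, summed to 2222 in winter and 1641 in summer, with a median log2 ratio of 0.07, and SCG2, secretogranin, held 1195 and 554 of it. Of the 9, 5 were higher in winter and 4 in summer. More than 2-fold apart were SCG2 and CARTPT, higher in winter, and PDYN (35.9 and 127) and PCSK1 (32.9 and 69.1), higher in summer. The putative AVP row, given above, was higher in summer. Oligodendrocyte markers had no single-solution gene. Their 9 means summed to 40333.5 in winter and 36708.5 in summer. Endothelial and mural markers summed to 1896 and 2062 and ependymal markers to 344 and 496. Hormone genes of the pituitary were also present, with means of 1132 and 464 for GH1, growth hormone, 738 and 1294 for POMC and 170 and 213 for PRL, and TSHB below 10. The part of cell composition in the differences between libraries was not tested.

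Other genes of the secretory pathway, outside the names that define the machinery, were followed on a list of 66. Of its 58 genes with a mean of at least 10, 42 had the higher mean in winter, and the median log2 ratio was 0.17. Of 20 with a single solution, 1 passed the rule (1.68% of all symbols did), SYTL3, a synaptotagmin-like protein that binds the vesicle GTPase RAB27. Its normalized reads were 12.1 and 10.6 in winter against 21.7 and 66.1 in summer, a log2 difference of -1.93 with an unadjusted p of 0.0359 and an adjusted p of 0.982 by edgeR's quasi-likelihood test. The seasons did not overlap, and summer library B was more than 2-fold above A. SYTL3 also passed in DESeq2, edgeR's exact test and each scaling, but not in limma-voom. It did not pass without winter library A, winter library B or summer library B. Without summer library A, which left only the higher summer library, it passed with a log2 difference of -2.53.

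RAB3A, a GTPase of synaptic vesicles, had 86.8 and 41.2 normalized reads in winter against 14.1 and 52.4 in summer, and SLC32A1, the vesicular transporter of GABA, 71.7 and 24.3 against 4.34 and 41.0. In both, winter library A was highest and summer library A lowest, as in SYT2 and SYNPR. BSN, bassoon, a scaffold of the active zone, had means of 364 and 179, and PCLO, piccolo, its relative, 1065 and 1063. SCAMP2, a carrier protein of secretory membranes, had 135 and 173 in winter and 99.8 and 82.1 in summer, without overlap (edgeR adjusted p = 0.982). DOC2A, DOC2B, TXLNA and SLC18A2 were likewise higher in both winter libraries, as were 13.4% of all symbols. SYTL4 was higher in both summer libraries, like SYTL3 and 17.2% of all symbols, with 96.6 and 82.5 in winter and 152 and 117 in summer. Of the genes on this list with a single summer solution, 33 of 46 were higher in summer library B.

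Of the 76 symbols, 72 matched a gene of the RefSeq annotation of assembly mCamDro1.pat, and 14 of these overlap another protein-coding gene there. There SYN1 overlaps TIMP1 and ARAF, SYN2 overlaps TIMP4, SYN3 overlaps TIMP3, SV2A overlaps BOLA1, SYT11 overlaps GON4L and VAMP1 overlaps TAPBPL. The strand setting of the counting is not given in the sources used here, so reads of such neighbours may be shared, and the values of these genes are uncertain.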

How the data were processed

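RNA of the supraoptic nucleus was analysed in 2 winter and 2 summer libraries, grouped by the season in the labels. With TopHat the authors mapped the reads to a dromedary assembly of their own, and they deposited raw HTSeq counts per gene model, without gene names. On gene models 4379162 to 6902037 reads were counted per library, while 46.4% to 55.2% of the tallied alignments lay outside gene models and 20.2% to 26.9% were not unique; these tallies stayed out. For gene symbols the authors deposited a signal, each season's mean count after scaling by DESeq size factors. Their table also holds edgeR fold changes and p-values, which were not used. Tool versions are not given in the sources used here.

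Every one of the 16049 symbols with means (4 rows whose symbol was repeated were dropped) was a sum of whole reads of 2 libraries at the 6 digits deposited, and 9864 had a single solution. Of low means, 100% had a solution, against 0.495% to 0.566% of the same means moved at random. The recovered reads could not be matched to the gene models (at most 7 of 5791 did), so the count files give depth and correlations between libraries only. Reads scaled by the size factors went into edgeR 4.0.16 (R 4.3.3; estimateDisp, then glmQLFit with the legacy option off and glmQLFTest, season as the only term), for the 7623 single-solution symbols whose mean reached 10 in winter or summer, with Benjamini-Hochberg adjustment over them. The SE printed is not an output of this test but was derived as the absolute log2 difference divided by the square root of its F statistic. A call, as in the study, was an unadjusted p under 0.05 and more than 2-fold. Alternatives were other scalings, filters and fold thresholds, DESeq2 1.42.0, limma-voom (limma 3.58.1), the exact test and each library left out.

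The members, the neuronal core and the other lists were chosen with earlier results of these data known. Genes named were the neuronal core, those with an unadjusted p under 0.05, the 5 highest and 5 lowest ratios, and those whose libraries do not overlap. The others were named, after their values were seen, to account for each role. The values of 2 genes are not reported here, though counts and medians over lists include them. The scripts were tested on simulated data. The limit set by a count of 0 covers counting error only, and the 2 libraries per season limit every difference. Matplotlib 3.10.9 drew the figures.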

Additional observations from a re-analysis of the deposited data

How the results depend on the processing

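The number of exocytosis genes past the rule was 0, 1 with TMM, 1 with RLE and 1 with total-read scaling, 0 under the other tests, filters and fold thresholds, and 0 to 5 with each library left out. The number past an adjusted p of 0.05 was 0 in each setting with all libraries and 0 to 1 with each left out. Of related secretion genes 1 passed, 0 with limma-voom and 0 to 7 with each library left out. With all symbols, 65 of 128 calls were higher in winter, 79 of 145 with TMM, 83 of 142 with RLE and 121 of 167 with total-read scaling. Of the 18 exocytosis genes with means more than 1.5-fold apart, 4 were more than 2-fold apart, and 44 were more than 1.2-fold apart. The median log2 ratio of season means was 0.11 to 0.15 under each filter, pseudocount and centring. The genes whose libraries do not overlap numbered 6, or 7 with TMM or total-read scaling. Added after the data were seen, the medians of the single-solution genes with each library left out ranged from -0.20 to 0.36 (all 32) and from -0.040 to 1.08 (core). The cause of these changes was not tested. No paired analysis was possible because the groups share only 1 replicate number and the recovered libraries carry none. Most genes with high winter means had no test, since their reads could not be assigned to libraries.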
